A study of Mus musculus with 12 samples.

Results

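The genes described here are *Bcan* (brevican) and 9 further genes of the perineuronal matrix, *Ncan*, *Acan*, *Vcan*, *Hapln1*, *Hapln2*, *Hapln4*, *Tnr*, *Tnc* and *Ptprz1*, read from an RNA-seq table of the mouse hippocampus. They were picked by symbol, and each of the 10 matched one row among the 22236 genes of the table. RNA was taken from the whole hippocampus of adult male mice of 2 inbred strains, C57BL/6J (B6) and DBA/2J (D2), which were 3 to 5 months old when a viral vector was injected. The vector was AAV9-shRNA-Hp1bp3 (knockdown, KD), whose short hairpin RNA targets *Hp1bp3*, or AAV-scrmb-shRNA (control, Ctrl), whose hairpin sequence is scrambled. There were 3 mice in each of the 4 groups and 1 library per mouse, so the controls too had received surgery, virus and a hairpin. The virus was delivered to the dorsal hippocampus, whereas the RNA came from the whole structure, so each library may mix reached and unreached tissue.

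The perineuronal matrix is a dense extracellular lattice that surrounds certain neurons, above all fast-spiking interneurons that make parvalbumin, and it closes over maturing circuits as plasticity declines. Its backbone is hyaluronan, a long sugar polymer. Lecticans, proteoglycans that carry chondroitin sulfate chains, bind hyaluronan at one end, link proteins of the Hapln family clamp that contact, and tenascins join lecticans to each other at the other end. Ptprz1 is a receptor phosphatase with chondroitin sulfate chains whose soluble extracellular form, phosphacan, is itself part of the matrix.

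Library totals ranged from 18213084 to 39420219 expected counts, with a median of 32380282, and each of the 10 genes passed the filter on low counts that left 15853 genes for testing. The targeted gene, *Hp1bp3*, stood at 308, 294 and 310.1 CPM (counts per 1000000 counts) in the B6 Ctrl libraries and at 185, 182 and 259 CPM after knockdown in B6, with no overlap. It stood at 226, 215 and 234 CPM in D2 Ctrl and at 177, 163 and 229.5 CPM in D2 KD. The library labelled D2 KD 3 was therefore inside the D2 Ctrl range for the targeted gene, and the D2 estimates below are given with and without it. The edgeR log2 fold change of *Hp1bp3* in B6 was -0.54 ± 0.15 (SE, adjusted p = 0.0760) and that in D2 was -0.25 ± 0.15 (adjusted p = 1), and neither was called. Leaving out the library labelled D2 KD 3 gave -0.54 (adjusted p = 0.0469) and -0.41 (adjusted p = 0.554), and without B6 KD 3 the B6 value was -0.76 (adjusted p = 0.0226). Averaged over strains the edgeR value was -0.39 ± 0.11 (adjusted p = 0.0907) and was not called. DESeq2, a second method and the one the authors used, gave -0.57 in B6 (adjusted p = 0.0083). Averaged over strains it gave -0.41 (adjusted p = 0.0096), and both were called. The authors reported lower *Hp1bp3* mRNA and protein after knockdown. Markers of neurons had a mean level of 9.09 to 9.48 on the log2(CPM + 1) scale in all libraries, while markers of choroid plexus, a tissue next to the hippocampus, ranged from 1.77 to 6.81 with wide spread inside every group.

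Scaled to exon length, *Bcan* had the highest mean level of the 10 genes at 52.3 CPM per kb, followed by *Ncan* at 42.0, *Hapln4* at 40.4 and *Ptprz1* at 15.4 CPM per kb. *Hapln2* (7.58), *Hapln1* (5.05), *Tnr* (2.56), *Tnc* (2.14), *Vcan* (1.50) and *Acan* (1.11 CPM per kb) made up the lower part of the order. *Bcan* exceeded *Ncan* in 9 of 12 libraries and the 3 exceptions were the B6 KD libraries. *Ncan* exceeded *Hapln4* in 6 of 12 libraries, which were the 6 of B6, and was below it in the 6 of D2, so the order of that pair differed by strain. *Hapln4* exceeded *Ptprz1*, and *Ptprz1* exceeded *Hapln2*, in 12 of 12 libraries. Further down, *Tnr* was above *Tnc* in 6 of 6 Ctrl libraries but in 2 of 6 KD libraries. *Tnc* was above *Vcan* in 2 of 6 Ctrl libraries, neither of them of D2, and in 5 of 6 KD libraries. *Acan*, whose product aggrecan is the lectican classically tied to the nets of parvalbumin neurons, had the lowest level of the 10 in a sample of all hippocampal cells.

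**Figure D1:**
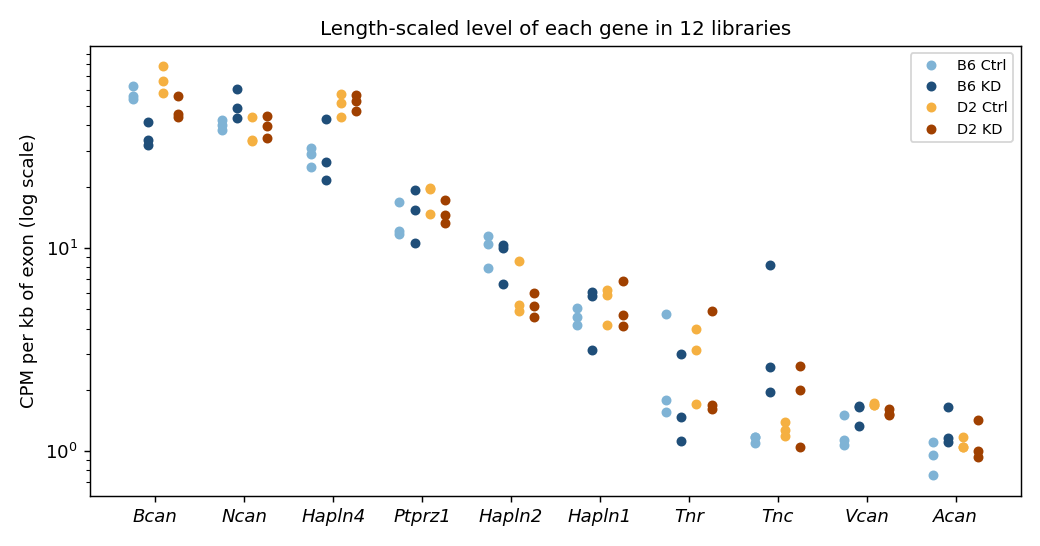
Level of each gene in CPM per kb of exon (log axis), 1 point per library, coloured by group, with genes in order of their mean. Points of *Bcan*, *Ncan* and *Hapln4* lie between 21.5 and 78.2 CPM per kb, and those of *Acan* between 0.758 and 1.65.

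In the GRCm38 annotation (GENCODE M21) the lecticans lie beside link protein genes. *Bcan* (ENSMUSG00000004892, chr3:87987531-88000230, minus strand) is 21.5 kb from *Hapln2* (chr3:88021750-88027583, minus). *Ncan* (chr8:70093085-70120873, minus) is 2.22 kb from *Hapln4* (chr8:70083457-70090862, plus), and *Vcan* (chr13:89655312-89742509, minus) is 43.7 kb from *Hapln1* (chr13:89539796-89611652, plus). *Acan* (chr7:79053483-79115099, plus) ends next to *Hapln3*, which is not among the 10 genes. *Tnr* (chr1:159523769-159931729, plus), *Tnc* (chr4:63959785-64047015, minus) and *Ptprz1* (chr6:22875502-23052916, plus) have no member as a neighbour. Exons of *Tnc* and *Tnr* overlap antisense genes by 0.176 and 0.443 kb, and whether reads were counted by strand is not given in the sources used here, so a small part of their counts could belong to the partner.

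*Bcan* was lower after knockdown. The B6 Ctrl libraries held 255, 228 and 219 CPM and the B6 KD libraries 138, 169 and 129.9 CPM. The D2 Ctrl libraries held 268, 234 and 318 CPM and the D2 KD libraries 185, 179.9 and 228 CPM. Within each strain every knockdown library was below every control library, a pattern that 1.26% of all tested genes had in both strains. Group means were 234 ± 18.8 and 146 ± 20.7 CPM in B6 (SD, n = 3 each) and 273 ± 42.0 and 197 ± 26.2 CPM in D2. In B6 the log2 fold change was -0.68 ± 0.14 (SE, edgeR adjusted p = 0.0415), so that the level fell by 37.8%, and *Bcan* was the only member called in that comparison. Of all tested genes, 2.64% were called there in either direction and 0.877% as lower. In D2 the log2 fold change was -0.47 ± 0.14 and was not called (adjusted p = 1), and 0% of genes were called in D2. Leaving out the library labelled D2 KD 3 gave -0.58 (adjusted p = 0.420). The B6 call was lost in 8 of 12 fits that each left out 1 library (adjusted p = 0.0531 to 0.188) and was kept without B6 KD 3, D2 Ctrl 3, D2 KD 2 or D2 KD 3, with the log2 fold change between -0.83 and -0.64 in all 12. It was also lost with the library total (-0.69, adjusted p = 0.0687) or the choroid plexus score (-0.72, adjusted p = 0.0611) as a covariate. Neither of these covariate fits called any gene in B6. The same held without B6 Ctrl 1, B6 Ctrl 3, B6 KD 1, B6 KD 2 or D2 Ctrl 1. Of 9 fits with another setting, the covariate fits included, 7 kept the *Bcan* call. Averaged over strains *Bcan* stood at -0.58 ± 0.10 (adjusted p = 0.0540), against 0% of genes called. That value was called without B6 KD 3 (adjusted p = 0.0350), D2 Ctrl 3 (0.0404) or D2 KD 3 (0.0124). DESeq2 with all 12 libraries gave -0.59 averaged over strains and called it (adjusted p = 1.5e-05), where it called 7.83% of all genes.

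Several cell type marker lists moved in the same B6 comparison. The mean level of 8 parvalbumin interneuron markers was 6.22 to 6.37 in B6 Ctrl and 5.80 to 6.11 in B6 KD on the log2(CPM + 1) scale, with 0 of 8 called and a median log2 fold change of -0.40. Astrocyte markers, from the cells that make much of the brevican in brain, stood at 7.90 to 7.99 in B6 Ctrl and 8.12 to 8.32 in B6 KD, with 1 of 12 called higher, 7 estimates positive, 5 negative and a median log2 fold change of 0.10. Microglia markers stood at 5.00 to 5.22 in B6 Ctrl and 5.34 to 5.98 in B6 KD, with 1 of 8 called higher. In B6 12 of 12 interferon response genes were called higher, where 2.64% of all genes were called in either direction. The other cell type lists had 0 genes called in B6. Their medians were 0.05 for oligodendrocyte precursors, -0.01 for mature oligodendrocytes, -0.12 for neurons and -0.05 for CA2 neurons. Those of endothelium, fibroblasts with meninges, and choroid plexus were 0.33, 0.80 and 1.72. In D2 the parvalbumin list stood at 5.08 to 5.63 in Ctrl and 5.29 to 5.55 in KD (median log2 fold change -0.08). There the astrocyte list stood at 7.99 to 8.57 in Ctrl and 7.97 to 8.36 in KD (median -0.12). Microglia markers stood at 4.88 to 5.45 and 4.91 to 5.42 in D2 (median 0.02). The part of these lists in the *Bcan* result was not tested. In whole tissue, fewer cells of a type and less RNA per cell cannot be told apart.

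**Figure D2:**
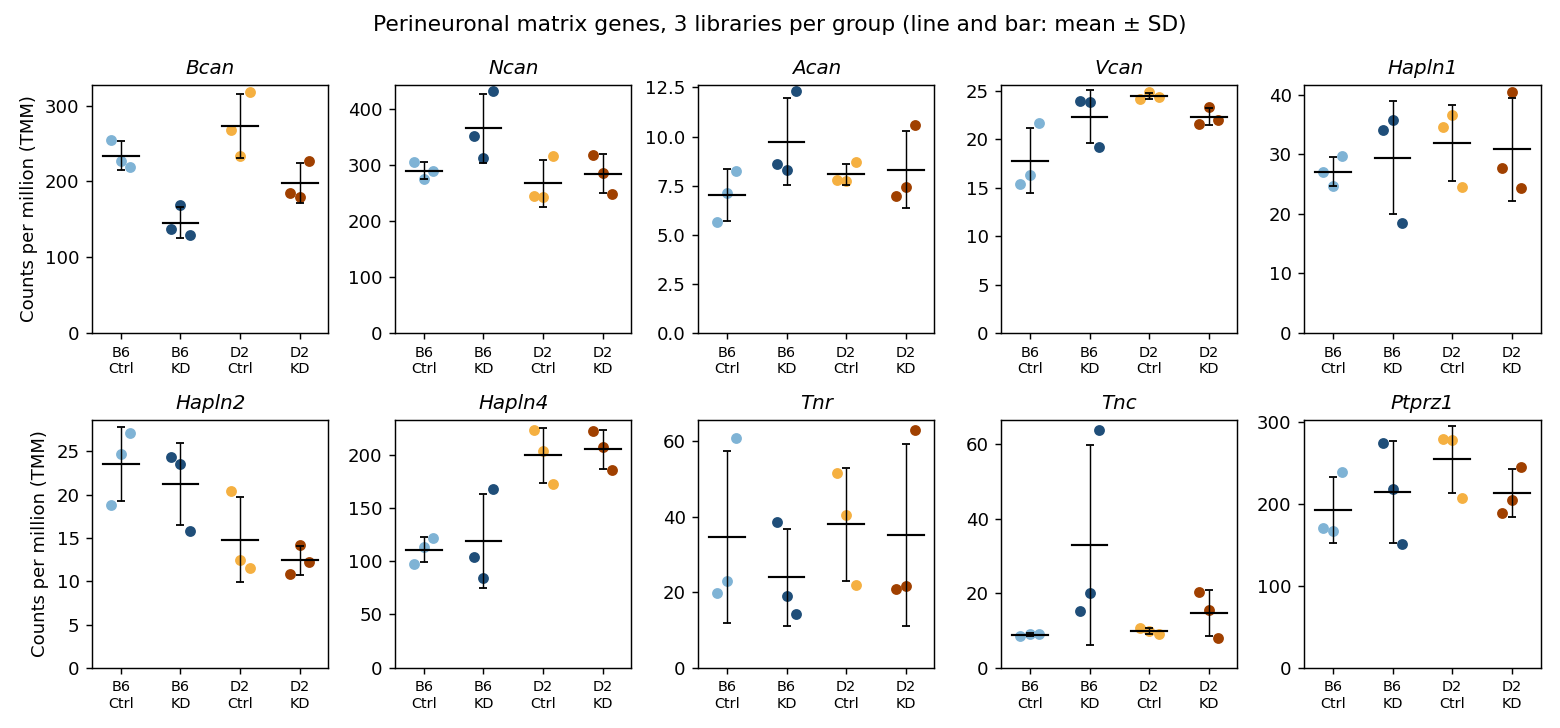
CPM of each of the 10 genes (one panel per gene, vertical axes from 0) in the 3 libraries of each group, with the group mean as a line and the SD as a bar. The B6 KD points of *Bcan* (129.9 to 169) lie below its B6 Ctrl points (219 to 255), while 1 B6 KD library holds the highest *Tnc* point at 63.7 CPM.

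The start of *Bcan* is shown with those of the other 3 members whose B6 control and knockdown libraries did not overlap, *Ncan*, *Acan* and *Tnc*, so that genes that were lower and higher can be set side by side. Each line holds the 250 bases upstream of the RefSeq start (GRCm38.p6), 5′ to 3′ on the gene's strand, and capitals mark a GC box (GGGCGG on either strand) or a TATA box (TATAAA on either strand).
Bcan: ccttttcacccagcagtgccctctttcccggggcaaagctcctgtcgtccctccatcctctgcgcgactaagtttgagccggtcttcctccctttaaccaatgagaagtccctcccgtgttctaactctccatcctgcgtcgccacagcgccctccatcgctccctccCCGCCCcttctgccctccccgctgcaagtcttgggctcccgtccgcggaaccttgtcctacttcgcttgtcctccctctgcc
Ncan: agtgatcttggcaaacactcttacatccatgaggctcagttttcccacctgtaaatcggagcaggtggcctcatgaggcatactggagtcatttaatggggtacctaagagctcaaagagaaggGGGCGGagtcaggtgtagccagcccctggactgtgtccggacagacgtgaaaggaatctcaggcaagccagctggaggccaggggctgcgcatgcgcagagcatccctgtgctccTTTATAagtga
Acan: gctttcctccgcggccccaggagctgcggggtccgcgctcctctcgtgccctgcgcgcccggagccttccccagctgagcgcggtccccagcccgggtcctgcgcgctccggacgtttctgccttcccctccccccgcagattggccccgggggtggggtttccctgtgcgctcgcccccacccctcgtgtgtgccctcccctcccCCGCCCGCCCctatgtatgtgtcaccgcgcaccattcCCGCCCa
Tnc: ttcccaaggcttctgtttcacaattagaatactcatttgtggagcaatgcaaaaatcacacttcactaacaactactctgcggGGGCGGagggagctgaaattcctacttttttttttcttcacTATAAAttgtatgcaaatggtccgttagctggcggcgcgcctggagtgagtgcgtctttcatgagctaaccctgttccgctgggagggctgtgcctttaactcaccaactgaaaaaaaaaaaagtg
The windows are chr3:88000357-88000606 (minus) for *Bcan*, chr8:70120845-70121094 (minus) for *Ncan*, chr7:79052976-79053225 (plus) for *Acan* and chr4:64047016-64047265 (minus) for *Tnc*. GC content was 62.0% for *Bcan* with 16 CpG, 54.4% for *Ncan* with 6, 74.4% for *Acan* with 26 and 44.8% for *Tnc* with 8, against a median of 52.4% over 32817 RefSeq promoters. *Acan* held 3 GC boxes, of which 2 overlap, and the other 3 genes 1 each, a motif found in 32.72% of all promoters. *Ncan* and *Tnc* each held 1 match to the TATA box letters (12.37% of promoters). Motifs were counted anywhere in the window, and their distance from the start was not used. The RefSeq start of *Ncan* lies 29 bases inside its GENCODE gene, and its TATA match falls within those bases. An AP-1 site (TGANTCA, 6.753% of promoters) was searched on both strands and not found in these 4 windows. RefSeq promoters were listed for 9 of the 10 members, and where a gene had several, the one nearest the GENCODE start was taken.

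*Ncan* encodes neurocan, the other lectican made mainly in the nervous system. It stood at 305, 275 and 289 CPM in B6 Ctrl and at 352, 313 and 433 CPM in B6 KD. D2 Ctrl held 244, 242 and 315 CPM and D2 KD 319, 286 and 249 CPM. The B6 groups did not overlap and the D2 groups did. The log2 fold change in B6 was 0.34 ± 0.14 (adjusted p = 0.217), and that in D2 was 0.09 ± 0.14 (adjusted p = 1), or 0.18 with the library labelled D2 KD 3 left out. Neither was called. With *Bcan* lower and *Ncan* not, the ratio of *Bcan* to *Ncan* CPM was 0.836, 0.828 and 0.758 in B6 Ctrl and 0.392, 0.540 and 0.300 in B6 KD. It was 1.10, 0.967 and 1.01 in D2 Ctrl and 0.580, 0.629 and 0.914 in D2 KD, the last in the library labelled D2 KD 3. Every knockdown ratio was below every control ratio of its own strain. In B6 this had to be so, since every knockdown library was lower for *Bcan* and higher for *Ncan* than every control. The ratio restates the values of both genes and is no separate result.

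*Acan* and *Vcan*, the remaining lecticans, were far less abundant. *Acan* had 5.66, 7.15 and 8.27 CPM in B6 Ctrl against 8.63, 8.29 and 12.3 CPM in B6 KD. Its D2 libraries had 7.80, 7.75 and 8.70 CPM as controls and 6.99, 7.42 and 10.6 CPM after knockdown. The B6 groups were separated by a narrow margin (8.27 against 8.29 CPM), and the log2 fold change of 0.47 ± 0.21 was not called (adjusted p = 0.235), and the D2 estimate was 0.04 ± 0.21. *Vcan*, which encodes versican, a lectican also made by oligodendrocyte precursors, had 15.4, 16.3 and 21.7 CPM in B6 Ctrl and 24.0, 23.9 and 19.2 in B6 KD. It had 24.2, 24.8 and 24.4 CPM in D2 Ctrl and 21.6, 23.3 and 22.0 in D2 KD. In B6 the groups overlapped with a log2 fold change of 0.33 ± 0.13 (adjusted p = 0.192), and in D2 the knockdown libraries were all below the controls with -0.13 ± 0.13 (adjusted p = 1), or -0.12 when D2 KD 3 was dropped. Non-overlap of KD and Ctrl in either direction was seen for 27.8% of all tested genes in B6 (4 of the 10 members) and 5.96% in D2 (2 of the 10, *Bcan* and *Vcan*).

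The link proteins gave no call for knockdown. *Hapln1*, the link protein first known from cartilage and made by neurons with nets, had 27.0, 24.6 and 29.6 CPM in B6 Ctrl and 34.1, 35.6 and 18.4 in B6 KD. In D2 it had 34.5, 36.6 and 24.6 CPM in Ctrl and 27.6, 40.5 and 24.3 in KD, so the groups overlapped in both strains. Its log2 fold change was 0.12 ± 0.26 in B6 and -0.05 ± 0.26 in D2. *Hapln2*, which serves the nodes of Ranvier on myelinated axons, had 18.8, 24.7 and 27.1 CPM in B6 Ctrl against 24.4, 23.5 and 15.8 CPM in B6 KD. Its D2 libraries had 20.4, 12.4 and 11.5 CPM as controls and 10.8, 14.2 and 12.3 CPM after knockdown, so KD and Ctrl overlapped in both strains. Its knockdown log2 fold change was -0.15 ± 0.24 in B6 and -0.25 ± 0.24 in D2. *Hapln4*, a link protein of perineuronal nets that partners brevican, had 97.7, 113 and 121 CPM in B6 Ctrl and 104, 84.5 and 168 in B6 KD. It had 223, 203 and 172 CPM in D2 Ctrl and 222, 207 and 186 in D2 KD, and its knockdown log2 fold change was 0.10 ± 0.21 in B6 and 0.04 ± 0.21 in D2.

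The tenascins varied widely between libraries, *Tnr* in each group (coefficient of variation 39.3% to 68.8%) and *Tnc* after knockdown (81.1% in B6 and 42.1% in D2) but not in the controls (7.94% or less). *Tnc*, a tenascin of development and of reactive glia, had 8.49, 9.14 and 9.08 CPM in B6 Ctrl and 15.2, 20.1 and 63.7 CPM in B6 KD. It had 10.7, 9.79 and 9.19 CPM in D2 Ctrl and 20.4, 15.6 and 8.13 CPM in D2 KD, where the low value was that of the library labelled D2 KD 3. All B6 KD libraries were above all B6 Ctrl libraries, and 1 of them was more than 3 times the next. The B6 log2 fold change of 1.89 ± 0.49 was not called (adjusted p = 0.0610); without B6 KD 3 it was 0.95 (adjusted p = 0.0909), and dropping the library labelled D2 KD 3 left it at 1.89 (adjusted p = 0.0482). In D2 it was 0.57 ± 0.48 (adjusted p = 1), and 0.86 (adjusted p = 0.686) with that library dropped. *Tnr*, the tenascin that crosslinks lecticans in adult nets, had 19.9, 23.0 and 60.9 CPM in B6 Ctrl against 38.5, 18.9 and 14.3 CPM in B6 KD. Its D2 libraries had 51.4, 40.4 and 21.9 CPM as controls and 20.8, 21.6 and 63.0 CPM after knockdown. Each group thus held both high and low libraries, the log2 fold changes were -0.53 ± 0.58 in B6 and -0.11 ± 0.58 in D2, and the D2 value with D2 KD 3 left out was -0.84 (adjusted p = 0.725).

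*Ptprz1* had 171, 167 and 239 CPM in B6 Ctrl and 275, 218 and 151 in B6 KD, and 279.5, 278 and 208 CPM in D2 Ctrl and 189, 205 and 246 in D2 KD. The groups overlapped in both strains, with log2 fold changes of 0.16 ± 0.22 in B6 and -0.26 ± 0.22 in D2.

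Set together, 7 of the 10 members had a positive and 3 a negative knockdown estimate in B6, and 4 a positive and 6 a negative one in D2. The median over the 10 was 0.14 in B6 and -0.08 in D2, where the medians over all genes were 0.0025 and 0.0041. At an unadjusted p under 0.05, 5 of the 10 members passed in B6 (20.6% of all genes), 1 in D2 (2.85%) and 2 averaged over strains (19.2%). With the library labelled D2 KD 3 dropped, the D2 estimates not given above were -0.17 for *Acan*, 0.10 for *Hapln1*, -0.25 for *Hapln2*, 0.11 for *Hapln4* and -0.37 for *Ptprz1*, and none was called. The interaction asks whether the knockdown effect differed between strains. No member was called (0% of genes; 5.91% had an unadjusted p under 0.05, and of the members *Vcan* did), and the interaction of *Bcan* was 0.22 ± 0.20 (adjusted p = 0.962). The B6 and D2 effects of *Bcan* were therefore not shown to differ, and an interval of that width does not show that they were alike.

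**Figure D3:**
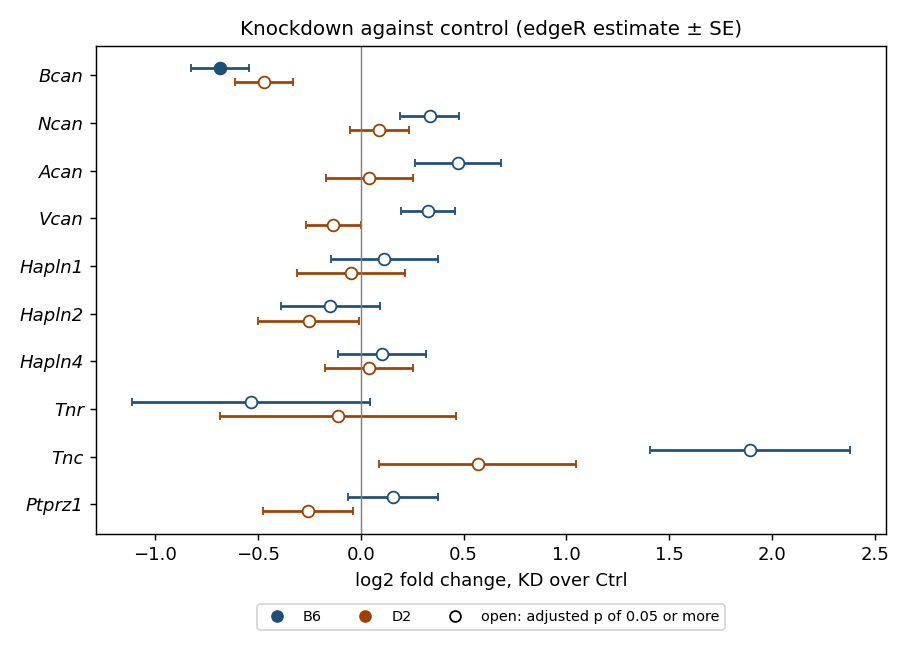
Knockdown log2 fold change with its SE for the 10 genes in B6 and D2; filled points have an adjusted p under 0.05. *Bcan* in B6 (-0.68) is the only filled point, and *Tnc* in B6 (1.89) has the largest estimate and a wide SE.

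The strain comparison asked which of these genes differ between D2 and B6. Among the Ctrl libraries *Hapln4* was higher in D2 (log2 fold change 0.85 ± 0.21, adjusted p = 0.0213) and so was *Vcan* (0.46 ± 0.13, adjusted p = 0.0400), where 14% of all genes were called. Control libraries of the strains did not overlap for *Vcan*, *Hapln4* and *Tnc*, as for 31.7% of all genes. The *Hapln4* call was lost without B6 Ctrl 1 (adjusted p = 0.0948), B6 Ctrl 2 (0.0608), D2 Ctrl 1 (0.0818) or D2 Ctrl 2 (0.0607). The *Vcan* call was kept only without B6 Ctrl 3 or B6 KD 3, and the other 10 fits gave adjusted p values of 0.0506 to 0.164. *Hapln2* stood at -0.67 ± 0.24 in Ctrl (adjusted p = 0.111) and was called without D2 Ctrl 1 (-0.98, adjusted p = 0.0183).

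Averaged over treatments, 3 of the 10 members were called, where 21.3% of all genes were. *Hapln4* was 1.76-fold higher in D2 (0.82 ± 0.15, adjusted p = 0.0021), with every D2 library above every B6 library, as 14.5% of all genes had in one direction or the other. *Hapln2* was lower in D2 (-0.72 ± 0.17, adjusted p = 0.0108) and *Bcan* higher (0.33 ± 0.10, adjusted p = 0.0359). Among the Ctrl libraries alone *Bcan* stood at 0.23 ± 0.14 (adjusted p = 0.407), was not called, and the strains overlapped. The *Hapln4* and *Hapln2* calls were kept in 12 of 12 fits that left out 1 library (0.85 and -0.71 with D2 KD 3 dropped, adjusted p = 0.0039 and 0.0260). The *Bcan* call was kept in 5, without B6 Ctrl 1, B6 KD 2, D2 Ctrl 2, D2 KD 1 or D2 KD 2, and lost in the other 7 (adjusted p = 0.0569 to 0.0819, the last without the library labelled D2 KD 3). *Ncan* (-0.24 ± 0.10, adjusted p = 0.136) was called without D2 Ctrl 3 (0.0470), and *Vcan* (0.23 ± 0.09, adjusted p = 0.117) without B6 Ctrl 3 (0.0112). Markers of mature oligodendrocytes, cells that make *Hapln2*, had a mean level of 7.39 to 7.98 in B6 and of 6.72 to 7.70 in D2 on the log2(CPM + 1) scale, with 2 of 10 called lower in D2. Their part in the *Hapln2* result was not tested. The mean level of the parvalbumin interneuron markers was lower in each D2 library (5.08 to 5.63) than in each B6 library (5.80 to 6.37). Of these 8 markers 2 were called lower in D2, *Erbb4* (-4.75 ± 0.17) and *Syt2* (-1.25 ± 0.29), the median was -0.0037, and *Pvalb* itself had 12.0 to 27.6 CPM in B6 and 13.5 to 28.4 CPM in D2. The part of this list in the strain results was not tested either. Each strain's reads had been aligned to that strain's own genome, so a strain difference and a difference in the reference used cannot be told apart.

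**Figure D4:**
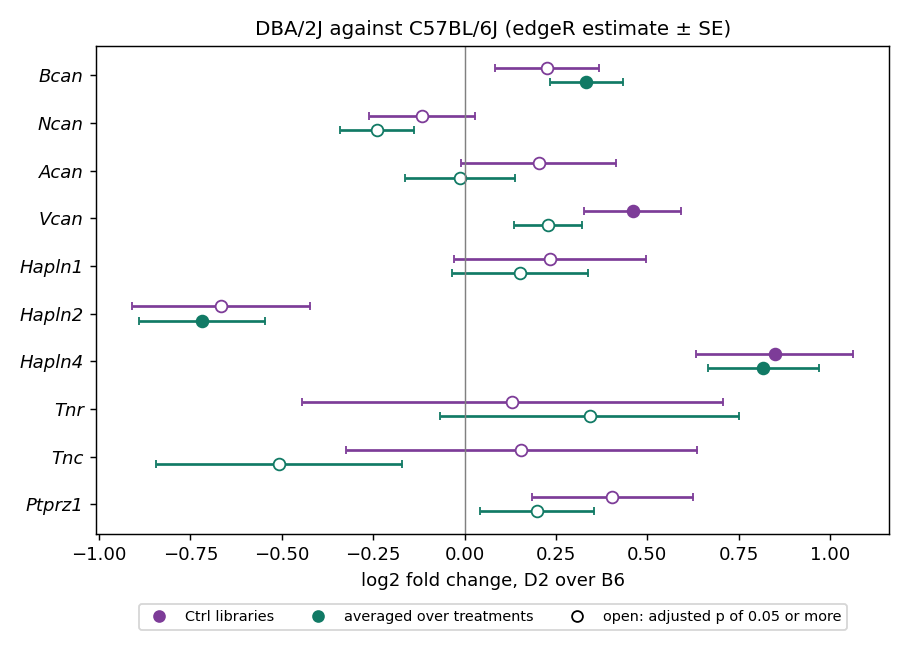
D2 over B6 log2 fold change with its SE for the 10 genes, in the Ctrl libraries and averaged over treatments; filled points have an adjusted p under 0.05. *Hapln4* is filled in both (0.85 and 0.82), *Vcan* in Ctrl libraries only, and *Hapln2* (-0.72) and *Bcan* (0.33) only in the average.

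The wider matrix pathway was read from 5 lists: hyaluronan synthesis and turnover, chondroitin sulfate synthesis, matrix proteases and inhibitors, matrix receptors and ligands, and other brain matrix proteins. In the edgeR fit none of their 95 tested genes was called for knockdown in B6, in D2 or averaged over strains, or for the interaction. In B6 an unadjusted p under 0.05 was found for 4 of 10 hyaluronan genes, 5 of 20 chondroitin sulfate genes, 8 of 20 proteases and inhibitors, 2 of 20 receptors and ligands and 11 of 25 other matrix proteins, beside 20.6% of all genes. The list medians in B6 were 0.31, 0.05, 0.29, 0.13 and 0.25 on the log2 scale. Picked after their values were seen, *Thbs2*, a thrombospondin, had group means of 8.14 and 24.3 CPM in B6 Ctrl and KD (log2 fold change 1.59 ± 0.38, adjusted p = 0.0534), *Cd44*, a hyaluronan receptor, 9.67 and 62.6 CPM (2.70 ± 0.72, adjusted p = 0.0670) and *Timp1*, an inhibitor of metalloproteinases, 0.438 and 11.6 CPM (4.77 ± 1.14, adjusted p = 0.0521). Without B6 KD 3 the estimates of *Cd44* and *Timp1* were 1.47 (adjusted p = 0.140) and 3.21 (adjusted p = 0.0837). That of *Thbs2* was 1.25 without B6 KD 2 (adjusted p = 0.161) and 2.13 without B6 Ctrl 2 (adjusted p = 0.0410). *Thbs2* was also called without B6 KD 3 (0.0437) or D2 KD 2 (0.0496), and *Timp1* without D2 Ctrl 3 (0.0464) or D2 KD 3 (0.0384). Of 9 fits with another setting, 3 called *Thbs2*, 2 called *Timp1* and 1 called *Cd44*.

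**Figure D5:**
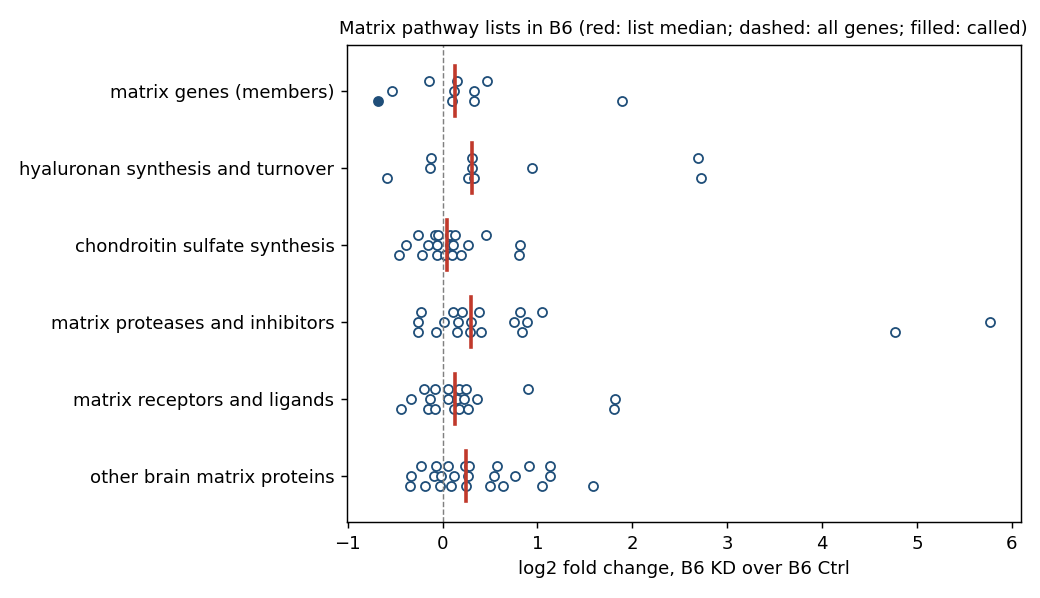
Knockdown log2 fold change in B6 of each tested gene, for the 10 members and the 5 lists, with list medians in red and the median of all genes dashed. The *Bcan* point is the only filled (called) one, and the medians of the lists lie between 0.05 and 0.31.

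Between strains, averaged over treatments, the lists held calls in both directions, 4 of 10, 5 of 20, 3 of 20, 3 of 20 and 4 of 25 genes in the order above, beside 21.3% of all genes. Among hyaluronan genes 1 was higher and 3 lower in D2: *Has1*, a hyaluronan synthase (1.13 ± 0.17, adjusted p = 0.00058), *Tnfaip6*, a hyaluronan-binding protein (-0.85 ± 0.17, adjusted p = 0.0041), and *Hyal1*, a hyaluronidase (-0.52 ± 0.17, adjusted p = 0.0470), are named. Among chondroitin sulfate genes 2 were higher and 3 lower. *Chsy3*, a chondroitin synthase, was higher (0.75 ± 0.13), as was *Csgalnact1*, which starts the chain (0.40 ± 0.11), and *B3galt6* (-0.63 ± 0.11) and *B4galt7* (-0.58 ± 0.07), which build the linker on which chains start, were lower. Among proteases *Mmp15* (0.75 ± 0.14) and *Mmp2* (0.80 ± 0.24) were higher, and *Adamts4*, which cuts brevican and other lecticans, was lower (-1.03 ± 0.15, adjusted p = 0.00033). Among receptors *Rtn4r*, a receptor for chondroitin sulfate proteoglycans, was higher (0.24 ± 0.08) and *Egfr* lower (-0.43 ± 0.10). Among other matrix proteins *Spock1*, a testican, was 4.19-fold higher (2.07 ± 0.09, adjusted p = 2.3e-08) and *Hapln3* higher (0.72 ± 0.17), while *Gpc4* (-0.43 ± 0.09) and *Spock2* (-0.38 ± 0.07) were lower. The calls of *Hyal1*, *Csgalnact1*, *Mmp2* and *Rtn4r* were lost in 11, 3, 8 and 9 of 12 fits that left out 1 library, with adjusted p values up to 0.116, 0.0591, 0.0846 and 0.101. Among the Ctrl libraries alone *Adamts9*, a further protease, was also named, at 0.55 ± 0.16 (adjusted p = 0.0379, lost in 6 of 12 such fits, up to 0.151).

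*Nptxr*, the neuronal pentraxin receptor, was listed much lower in D2 (-2.13 ± 0.26, adjusted p = 0.00012), but its exons share 0.89 kb on the same strand with *Npcd*. *Npcd* had 0 counts in each B6 library and 875 to 1642 CPM in D2. The sum of both genes was 952 to 2012 CPM in B6 and 1155 to 2157 CPM in D2, ranges that overlap, so the value of *Nptxr* alone is uncertain.

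Across the 12 libraries the genes whose log2 CPM followed *Bcan* most closely were *Gng7* (Pearson r = 0.97), *Gigyf1* (0.97), *Kansl3* (0.95), *Man2a2* (0.94) and *Eif4ebp2* (0.93). The most opposed were *Fstl1* and *Lage3* (r = -0.94 for each). With group means removed these values were 0.88, 0.90, 0.71, 0.77, 0.86, -0.84 and -0.82, and none of the 5 nearest genes stayed among the 5 nearest. These values describe 12 libraries that differ in group, depth and choroid plexus level, and carry no test. Among the members, *Bcan* and *Ncan* had r = -0.67, and -0.15 with group means removed, and *Bcan* and *Tnc* -0.80 and -0.52.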

How the data were processed

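RNA-seq libraries of 12 mouse hippocampi, 3 per strain and treatment, were analysed. The authors filtered and trimmed the reads and aligned them to each mouse's own strain genome. They deposited expected counts per gene made with RSEM 1.2.12 and Bowtie2 2.2.0, and the submitters' processing notes name GRCm38 and mm10. The annotation release is not given in the sources used here. Some samples had shared a barcode in pairs, and reads of a second sequencing run were joined for most samples, which are not named. The table of normalized counts that the authors also deposited was not used.

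Expected counts were rounded. Genes were filtered with filterByExpr, scaled by TMM and tested with edgeR 4.0.16 (quasi-likelihood F-test, robust) in 1 fit of 4 group means. P-values were adjusted by Benjamini-Hochberg over 15853 genes and called under 0.05. SE is the absolute log2 fold change over the square root of F. Levels are CPM over TMM library sizes, divided by GENCODE M21 exon length where genes are compared. Marker and pathway levels are means of log2(CPM + 1). Alternatives were DESeq2 1.42.0, limma-voom 3.58.1, other size factors, no filter, other quasi-likelihood settings, dropped decimals, 2 covariates and each library left out. The code was tested on simulated data.

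The members and lists were chosen with earlier results of these data known. All members were named, with the genes of the 5 lists called for knockdown or interaction, the 2 largest rises and 2 largest falls called per list and strain comparison, and the 5 genes most like and 2 least like *Bcan*. Replicate numbers follow accession order and pair nothing. Depth limits *Acan* most, at 137 to 488 counts per library.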

Additional observations from a re-analysis of the deposited data

Results flagged for a closer look

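*Vcan* was picked out because its KD libraries lay on opposite sides of the control mean in the strains, although neither knockdown estimate was called (adjusted p = 0.192 in B6 and 1 in D2). In B6 every KD library (19.2 to 24.0 CPM) was above the B6 Ctrl mean of 17.8 CPM, and in D2 every KD library (21.6 to 23.3 CPM) was below the D2 Ctrl mean of 24.5 CPM. The interaction in the edgeR fit was -0.46 ± 0.19 (SE), with an adjusted p of 0.821, so the difference between strains did not pass the threshold over all genes. Without the library labelled D2 KD 3 it was -0.45 (adjusted p = 0.976). Estimates of opposite sign were also found for *Ptprz1* (0.16 in B6 and -0.26 in D2) and *Hapln1* (0.12 and -0.05), with none called.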

How the results depend on the processing

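The number of the 10 members called was 1 for knockdown in B6, 0 in D2, 0 averaged over strains, 0 for the interaction, 2 for strain in Ctrl and 3 for strain averaged over treatments. With DESeq2 it was 2 in B6 and 2 averaged over strains (*Bcan* and *Tnc* in both). With the library total as a covariate it was 0 in B6 and 1 for strain in Ctrl, and with the choroid plexus score as a covariate 0 in B6. *Bcan* in B6 then had an adjusted p of 0.0687 and 0.0611, and its strain call was lost too (0.0641 and 0.0558). Leaving out 1 library gave 0 to 2 members in B6, 0 to 2 averaged over strains and 0 to 2 for strain in Ctrl. The other counts stayed within 1.5 times. Over all genes, knockdown in B6 gave 418 calls, 1688 with DESeq2, 0 with either covariate and 0 to 790 with 1 library left out. The average over strains gave 0 (3046 at an unadjusted p under 0.05), 1241 with DESeq2, 15 with the newer quasi-likelihood method and up to 799 without 1 library, and knockdown in D2 gave 0 (452 unadjusted) and at most 1. The interaction gave 0 (937 unadjusted) and 11 with DESeq2.

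Of 1260 member values under 21 alternatives, 1162 kept direction and call, 34 lost the call, 11 gained it and 53 turned direction, all of the last for uncalled estimates near 0 or with a large SE. With the library total as a covariate, knockdown in D2 turned to -0.032 for *Acan*, 0.022 for *Hapln1* and -0.096 for *Hapln4*, and the averaged strain value of *Acan* to 0.024. With limma-voom the averaged knockdown value of *Hapln1* turned to -0.0064 and the interaction of *Hapln4* to 0.00024. With 1 library left out, *Hapln1* ran from -0.065 to 0.33 in B6, -0.30 to 0.10 in D2, -0.092 to 0.13 for the average over strains and -0.41 to 0.013 for the interaction. *Hapln4* ran from -0.26 to 0.28 in B6, -0.056 to 0.12 in D2, -0.12 to 0.16 for the average over strains and -0.24 to 0.28 for the interaction. *Tnr* ran from -1.10 to 0.13 in B6, -0.84 to 0.17 in D2, -0.69 to 0.0063 for the average over strains, -0.31 to 0.98 for the interaction, -0.16 to 0.83 for strain in Ctrl and -0.022 to 0.71 for strain averaged over treatments. *Ptprz1* ran from -0.094 to 0.33 in B6 and -0.18 to 0.028 for the average over strains. *Ncan* ran from -0.011 to 0.23 in D2. *Acan* ran from -0.17 to 0.14 in D2 and -0.12 to 0.10 for strain averaged over treatments. *Hapln2* ran from -0.41 to 0.047 in D2 and -0.27 to 0.22 for the interaction. The causes were not tested. No paired analysis was possible because the labels give no replicate numbers that groups share.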

Other observations

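*Tnr* varied within each group and *Tnc* within the KD groups, and the genes that varied with them were looked up after their values were seen. Those closest to *Tnr* over the 12 libraries were *Fryl* (Pearson r = 0.98), *Epg5* (0.97), *Cntnap5c* (0.97), *Pcdhb16* (0.96) and *Cbl* (0.96), and with group means removed the values were 0.98, 1.00, 0.98, 0.96 and 0.97. Those closest to *Tnc* were *Tars* (0.98), *Bdnf*, a neurotrophin (0.95), *Glra1* (0.95), *Pde4b* (0.95) and *Matn2*, a matrix protein (0.95). With group means removed they had 0.98, 0.93, 0.91, 0.92 and 0.94. *Tnc* stood at 63.7 CPM in B6 KD 3 and at 8.13 to 20.4 CPM in the other libraries, so B6 KD 3 weighs heavily on these values. *Bdnf* ranged from 38.6 to 168 CPM. *Tnr* and *Ptprz1* had r = 0.80, and 0.89 with group means removed. These are descriptions with no test, over libraries that differ in group and depth.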
